A study of Mus musculus with 9 samples.

Results

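The enzymes described here break down amino acids in the liver. The set holds 42 genes chosen by name, and each gene was read from the probe set assigned to its symbol alone, with the highest mean signal over the 9 arrays where several existed. Of the 42 genes, 37 had such a probe set, among 18193 genes of the array that had one. Acmsd, Sds, Sdsl, Gcat and Tdh had no probe set assigned to them alone and were not analysed here. All 37 measured enzymes passed the filter on dim probe sets and were tested, within 12466 tested genes. RNA was taken from the livers of 9 mice, all female and of the outbred strain Crlj:CD1(ICR), which had been bought at an age of 9 weeks and held in quarantine for 1 week. For 2 weeks, 3 mice ate a powdered control diet, 3 ate that diet with 5000 ppm permethrin and 3 ate it with 5000 ppm clofibrate. Each array is labelled as 1 biological replicate. The description of the treated samples names rats, whereas organism, strain and source name give mouse. Permethrin belongs to the pyrethroids, which are used against insects. Clofibrate belongs to the fibrates, drugs that lower blood lipids and activate the nuclear receptor PPAR alpha.

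The liver takes up amino acids from the portal blood and degrades what is not used for protein. An aminotransferase or a lyase usually removes the nitrogen, which enters the urea cycle, and the carbon skeleton is passed to glucose, ketone bodies or the citric acid cycle. Most of these enzymes are strongly expressed in hepatocytes, and many respond to fasting hormones and to dietary protein. PPAR alpha activation is known to lower transcripts of amino acid degradation in mouse liver.

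The signals are linear MAS5 intensities, the unit of the array software. Array medians ran from 13.4 to 17.9, and the 37 enzymes were bright, with group means from 425 for Prodh with clofibrate upward. Signals of different probe sets cannot be compared as transcript amounts, so only the same probe set is compared between groups. Of 8 hepatocyte marker genes chosen as a check of the tissue, 7 had a probe set. Their signals added up to 69609 to 73214 in the control mice, to 59757 to 64689 in the mice fed permethrin and to 48322 to 58893 in those fed clofibrate. The highest signal per array was 14387 to 14899 for control mice, 12792 to 13409 under permethrin and 10714 to 12058 under clofibrate. The median log2 change of the 7 markers was -0.20 under permethrin and -0.42 under clofibrate. After quantile normalization these medians were -0.06 and -0.09. The part of the array scale in the lower sums was not tested. In whole liver, fewer hepatocytes and less RNA per hepatocyte cannot be told apart either. Markers of other cell types were summed in the same way. The 6 macrophage markers added up to 2366 to 2613 in the control mice, against 1932 to 3834 under permethrin and 2111 to 2814 under clofibrate, ranges that overlap. The 6 endothelial markers added up to 1729 to 1949, 1587 to 1789 and 1335 to 1438 in the same order. The stellate cell markers added up to 2097 to 3268, 1971 to 2115 and 1693 to 2337, and the cholangiocyte, lymphocyte and erythroid lists to at most 361 each on any array. The 4 pancreas markers with a probe set added up to 1136 to 1440 in the control mice and to 177 to 306 in the treated mice, a difference carried by Cela1, which fell under both diets. The part of these markers in the results was not tested.

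At the brightest probe set of each gene, the enzymes of amino acid breakdown that passed the test all fell. More of them passed with clofibrate than with permethrin. Only Hal and Prodh, both with clofibrate, fell by more than 2-fold. With permethrin 6 of the 37 enzymes fell and 0 rose in the limma test, where 2.13% of all tested genes passed, 0.85% lower and 1.28% higher. With clofibrate 16 of 37 fell and 0 rose, where 7.03% of all genes passed, 3.8% lower and 3.22% higher. The 6 enzymes that fell with permethrin were among the 16 that fell with clofibrate. The comparisons share their control mice, so they are not independent. At an unadjusted p under 0.05 in limma, 18 enzymes were lower and 1 was higher with permethrin, where 8.9% of all genes were lower and 6.89% higher. At the same limit 22 enzymes were lower and 2 were higher with clofibrate, against 12% and 9.03% of all genes. The enzymes' median log2 change was -0.30 with permethrin and -0.37 with clofibrate, while the median over all tested genes was -0.04 in both comparisons. The estimate was below 0 for 34 of 37 enzymes with permethrin and for 32 of 37 with clofibrate, against 56.3% and 55.3% of all tested genes. Signals of the 3 treated mice lay wholly below those of the 3 controls for 20 enzymes with permethrin, where 13.2% of all genes did so, and for 21 with clofibrate, against 15.6%. They lay wholly above the controls for 1 and 2 enzymes, where 9.53% and 11.6% of all genes did so. The group means ran from clofibrate as the lowest through permethrin to control for 21 enzymes, and from permethrin through clofibrate to control for 9.

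In single mice the median enzyme stood at 0.0020, -0.08 and 0.08 on the log2 scale in the 3 controls, relative to the control mean. It stood at -0.29, -0.22 and -0.32 in the mice fed permethrin and at -0.47, -0.28 and -0.36 in those fed clofibrate. All 6 treated mice were thus below all 3 controls. Within the methionine group the medians were -0.28, -0.33 and -0.37 with permethrin and -0.78, -0.38 and -0.52 with clofibrate. Within the histidine group they were -0.57, -0.69 and -0.69, and -0.79, -0.74 and -0.59. The branched-chain group differed from these, with medians of -0.02, -0.06 and -0.14 with permethrin and -0.21, 0.10 and -0.03 with clofibrate, which lay on both sides of its controls in the latter case. Many enzymes had further, dimmer probe sets. Of 21 such probe sets that were tested, 19 had the sign of the brightest one with permethrin and 18 with clofibrate. Among them, 3 belonged to enzymes called with permethrin, of which 3 had the same sign and 1 passed the threshold. For enzymes called with clofibrate there were 5, of which 4 had the same sign and 1 passed.

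**Figure D1:**
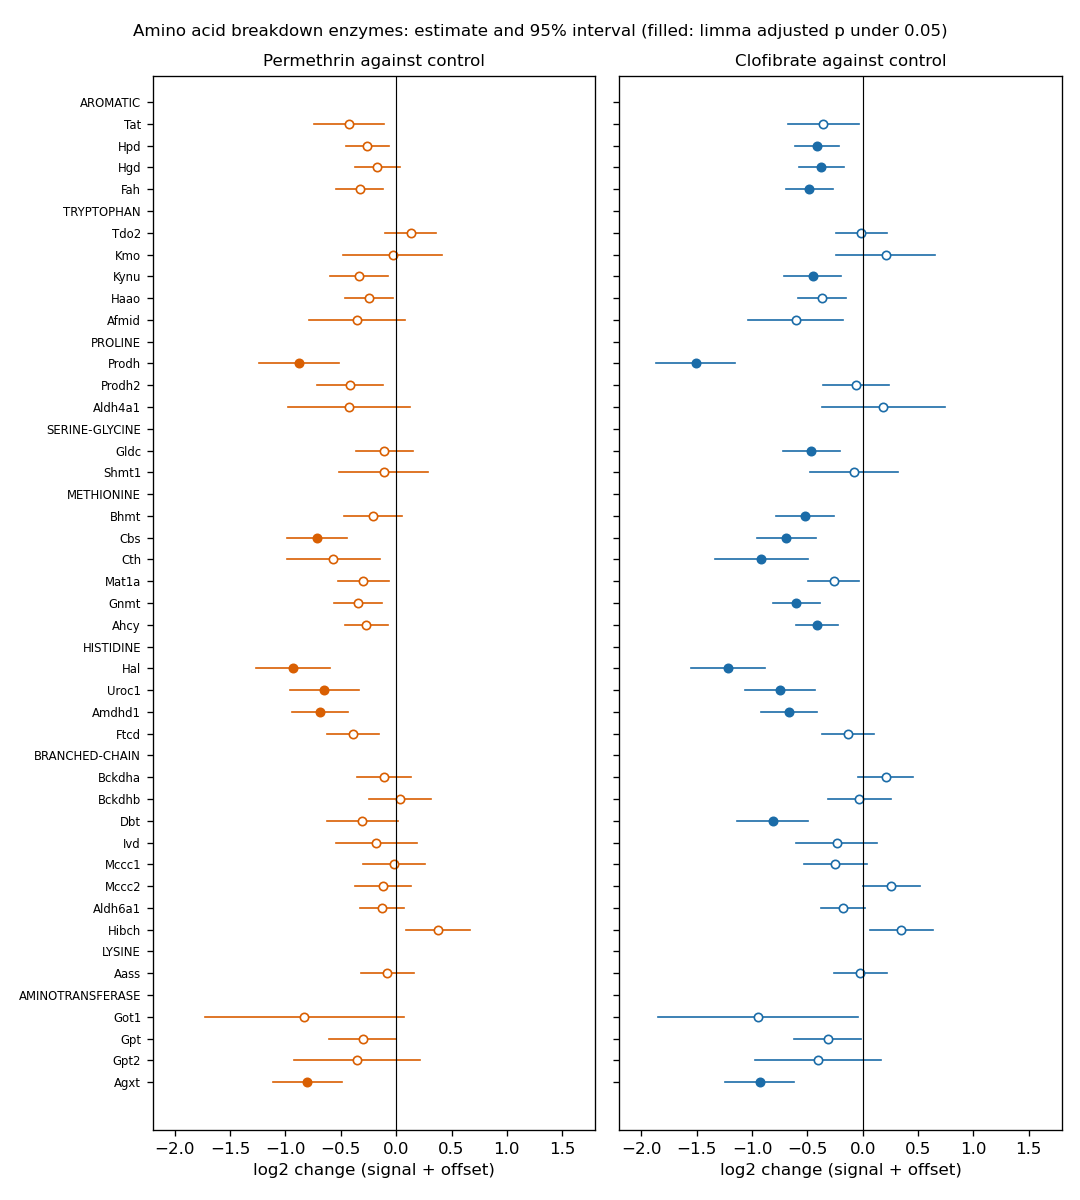
The log2 change of each of the 37 enzymes (horizontal axis, log2 of signal plus offset) is plotted by pathway for permethrin (left) and clofibrate (right) against control, with the 95% interval of the limma estimate as a line. Filled points passed the threshold, 6 on the left and 16 on the right, all of them below 0.

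In histidine breakdown 3 of the 4 enzymes fell under each diet, with medians over the 4 of -0.67 and -0.71. Hal, histidine ammonia-lyase, removes the amino group to form urocanate. Uroc1, urocanase, and Amdhd1, imidazolonepropionase, carry out the following steps, and Ftcd transfers the formimino group to folate. Promoter sequences of these 4 genes are shown because Hal, Uroc1 and Amdhd1 fell under both diets whereas Ftcd did not pass the threshold. The sequences are RefSeq promoters of GRCm38.p6, from 250 bases before to 50 bases after the gene's start. They lie at chr10:93488518-93488817 on the plus strand for Hal, chr6:90333039-90333338 on the plus strand for Uroc1, chr10:93539984-93540283 on the minus strand for Amdhd1 and chr10:76575398-76575697 on the plus strand for Ftcd. Both strands were searched, and capitals mark matches to AGGTCA, the hexamer bound by many nuclear receptors, to GTTAAT, a core of the hepatocyte factor HNF1, or to TATAAA, the TATA box.
Hal: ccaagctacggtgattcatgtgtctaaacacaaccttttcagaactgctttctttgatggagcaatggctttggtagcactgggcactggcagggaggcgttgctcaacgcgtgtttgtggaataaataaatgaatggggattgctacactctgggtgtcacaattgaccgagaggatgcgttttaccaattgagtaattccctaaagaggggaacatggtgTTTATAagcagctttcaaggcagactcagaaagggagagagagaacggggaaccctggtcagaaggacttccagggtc
Uroc1: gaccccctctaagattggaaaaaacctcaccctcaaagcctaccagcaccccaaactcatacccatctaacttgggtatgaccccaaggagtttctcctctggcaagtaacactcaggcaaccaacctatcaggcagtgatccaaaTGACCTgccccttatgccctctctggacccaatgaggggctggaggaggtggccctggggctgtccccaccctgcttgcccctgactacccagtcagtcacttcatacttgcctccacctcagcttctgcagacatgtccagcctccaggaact
Amdhd1: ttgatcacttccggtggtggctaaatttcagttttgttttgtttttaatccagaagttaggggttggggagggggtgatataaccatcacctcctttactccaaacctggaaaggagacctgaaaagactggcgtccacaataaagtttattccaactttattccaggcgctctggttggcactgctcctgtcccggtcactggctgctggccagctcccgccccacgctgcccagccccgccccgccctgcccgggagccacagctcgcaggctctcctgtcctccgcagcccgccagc
Ftcd: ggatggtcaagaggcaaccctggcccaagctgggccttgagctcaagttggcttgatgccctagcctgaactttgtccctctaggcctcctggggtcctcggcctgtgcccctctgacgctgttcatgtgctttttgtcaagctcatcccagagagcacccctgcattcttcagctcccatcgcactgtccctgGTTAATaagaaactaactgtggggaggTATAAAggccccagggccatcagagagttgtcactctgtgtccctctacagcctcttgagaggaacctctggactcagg
Hal holds TATAAA on the reverse strand at -28 from the start site, and Ftcd holds it on the forward strand at -29. Ftcd also holds GTTAAT at -56, and Uroc1 holds AGGTCA on the reverse strand at -104. The Amdhd1 window holds no match to these letters. Over all 32851 promoters of this length in the table, 13.6% hold TATAAA, 7.1% hold GTTAAT and 16.3% hold AGGTCA. Promoters were found for 34 of the 42 enzymes in 36 entries, of which 11.1% hold TATAAA, 11.1% hold GTTAAT and 36.1% hold AGGTCA. This hexamer stood in a promoter of 5 of the 13 enzymes with a promoter that fell with clofibrate and of 7 of the 19 that did not pass. The hexamer repeated in tandem with a gap of 1 base, a layout used by PPAR alpha that contains the single hexamer, matched 0 of the 36 entries. It matched 13 of the 32851 promoters, or 0.0396%. These matches describe letters and are not binding sites. In the RefSeq gene table Hal and Amdhd1 are direct neighbours on chromosome 10, with 0 listed genes between them.

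The Hal (probe set 1418645_at, chromosome 10) signal was 2297, 1992 and 2208 in the 3 controls, 1165, 1221 and 1017 with permethrin, and 723, 967 and 1133 with clofibrate. Every treated mouse was below every control. The log2 change of Hal was -0.93 ± 0.15 with permethrin (SE, n = 3; limma adjusted p = 0.012) and -1.22 ± 0.15 with clofibrate (limma adjusted p = 0.000873). Amdhd1 (probe set 1427370_at, chromosome 10) read 1673, 1618 and 1554 in controls, 1002, 1100 and 907 with permethrin, and 890, 1049 and 1122 with clofibrate. Its treated groups overlapped each other and lay below the controls, with changes of -0.69 ± 0.12 (limma adjusted p = 0.0133) and -0.67 ± 0.12 (limma adjusted p = 0.00633). A second probe set of Amdhd1 also fell under both diets, by 0.70 and 0.74. Uroc1 (probe set 1451565_s_at, chromosome 6) read 1993, 1717 and 1860 in controls, 1391, 935 and 1262 with permethrin, and 1118, 1015 and 1180 with clofibrate. Its treated groups overlapped each other, and all treated mice were below all controls. Its change was -0.65 ± 0.14 with permethrin, just inside the threshold (limma adjusted p = 0.0491), and -0.75 ± 0.14 with clofibrate (limma adjusted p = 0.0109). The permethrin call of Uroc1 was lost under most alternatives, 15 of 21. A dimmer probe set of Uroc1 had -1.37 and -0.68, both outside the threshold (limma adjusted p = 0.103 and 0.355). With its probe sets averaged, Uroc1 passed under neither diet. Ftcd read 2367, 2218 and 2331 in controls, 1681, 1783 and 1827 with permethrin, and 1813, 2204 and 2336 with clofibrate. Its clofibrate group overlapped the controls, and neither change passed, at -0.39 ± 0.11 with permethrin (limma adjusted p = 0.114) and -0.13 ± 0.11 with clofibrate (limma adjusted p = 0.576).

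In proline breakdown 1 of 3 enzymes fell, with the largest clofibrate change of the whole set. Prodh, proline dehydrogenase of the inner mitochondrial membrane, takes the first step from proline towards glutamate. Its promoter, at chr16:18089141-18089440 on the minus strand, is shown for that reason and holds no match to the searched letters.
Prodh: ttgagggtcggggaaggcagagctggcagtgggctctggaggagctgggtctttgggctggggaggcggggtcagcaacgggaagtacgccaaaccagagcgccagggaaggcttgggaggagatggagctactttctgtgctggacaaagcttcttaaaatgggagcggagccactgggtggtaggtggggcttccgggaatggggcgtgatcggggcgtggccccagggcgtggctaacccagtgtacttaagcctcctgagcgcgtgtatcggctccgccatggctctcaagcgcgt
Prodh (probe set 1417629_at, chromosome 16) read 1449, 990 and 1243 in controls, 646, 776 and 566 with permethrin, and 485, 397 and 394 with clofibrate. The 3 groups did not overlap, with clofibrate lowest. The log2 change was -0.88 ± 0.16 with permethrin (limma adjusted p = 0.022) and -1.51 ± 0.16 with clofibrate, a 2.85-fold fall (limma adjusted p = 0.000393). The mice fed permethrin were 0.63 ± 0.16 above those fed clofibrate, which did not pass (95% interval 0.27 to 0.99; limma adjusted p = 0.137). Prodh2, which acts on hydroxyproline, read 857, 865 and 1076 in controls, 760, 647 and 675 with permethrin, and 758, 940 and 989 with clofibrate. Its permethrin group lay below the controls while its clofibrate group overlapped them, and neither change passed. Aldh4a1, which completes the conversion to glutamate, ranged from 557 to 1219 in the controls alone and passed in neither comparison.

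Among the aminotransferases, Agxt fell under both diets and the others did not pass. Agxt (probe set 1418833_at, chromosome 1), the peroxisomal alanine-glyoxylate aminotransferase that detoxifies glyoxylate, read 3312, 3826 and 4075 in controls. It read 2021, 2397 and 2009 with permethrin and 1628, 2382 and 1918 with clofibrate. All treated mice were below all controls, with changes of -0.80 ± 0.14 (limma adjusted p = 0.0176) and -0.93 ± 0.14 (limma adjusted p = 0.00315). Got1, the cytosolic aspartate aminotransferase, had the largest standard error of the 37, with 1504, 1181 and 2283 in controls, 816, 917 and 960 with permethrin, and 370, 1563 and 973 with clofibrate. Its estimates of -0.83 ± 0.41 and -0.95 ± 0.41 were as large as those of Agxt but did not pass (limma adjusted p = 0.408 and 0.237). The alanine aminotransferases Gpt and Gpt2 had estimates from -0.30 to -0.41 that did not pass.

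**Figure D2:**
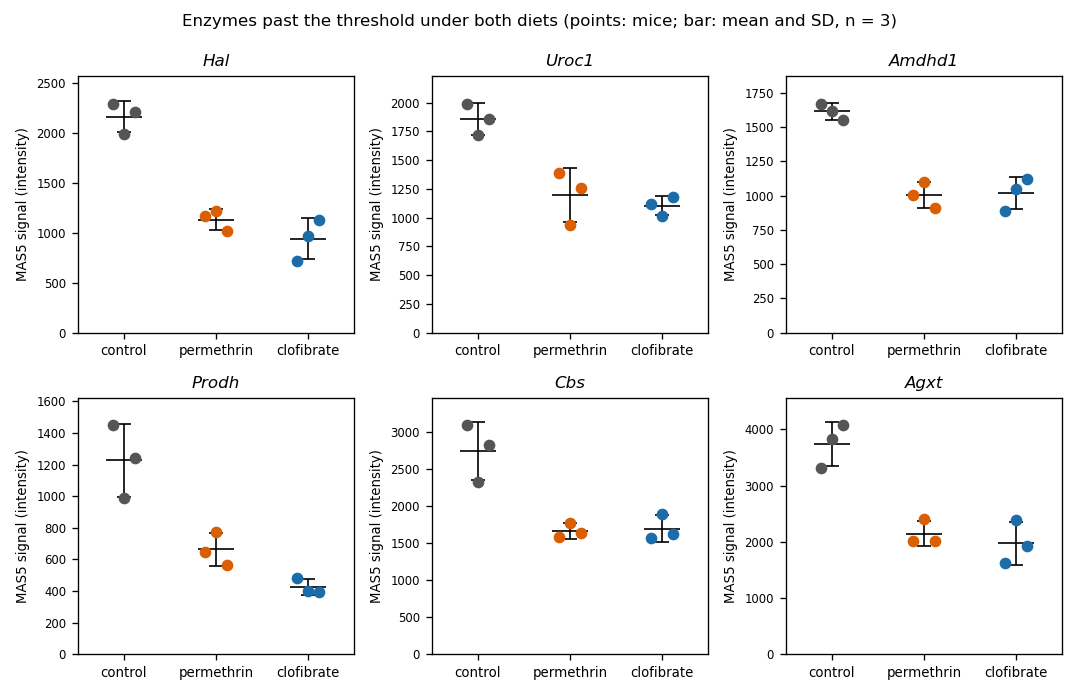
MAS5 signals (vertical axis, linear intensity from 0) of the 6 enzymes past the threshold under both diets are plotted for each mouse, with the mean and SD of each group of 3. In every panel the 6 treated mice lie below the 3 controls, and in the Prodh panel the clofibrate group is also below the permethrin group.

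Enzymes of methionine breakdown fell in 5 of 6 cases with clofibrate and in 1 of 6 with permethrin, with medians of -0.56 and -0.32. Mat1a makes S-adenosylmethionine, Gnmt uses it to methylate glycine, and Ahcy splits the resulting S-adenosylhomocysteine. Homocysteine is then either remethylated by Bhmt or passed to cysteine through Cbs and Cth. Cbs, the entry to cysteine synthesis, fell under both diets. Cbs (probe set 1423844_s_at, chromosome 17) read 3096, 2325 and 2832 in controls, 1579, 1779 and 1640 with permethrin, and 1573, 1902 and 1621 with clofibrate. The treated groups overlapped each other and lay below the controls, with changes of -0.71 ± 0.12 (limma adjusted p = 0.015) and -0.69 ± 0.12 (limma adjusted p = 0.00753). A second probe set of Cbs had -0.83 and -0.64, both outside the threshold (limma adjusted p = 0.0508 and 0.0706).

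Cth (probe set 1426243_at, chromosome 3), cystathionine gamma-lyase, read 6722, 5345 and 8400 in controls, 5486, 4316 and 3901 with permethrin, and 2838, 4318 and 3650 with clofibrate. The permethrin group overlapped the controls and did not pass (-0.57 ± 0.19), whereas the clofibrate group lay below them and fell by 0.92 ± 0.19 (limma adjusted p = 0.0173). Gnmt (probe set 1417422_at, chromosome 17) read 7967, 7923 and 8594 in controls, 6727, 6445 and 6113 with permethrin, and 4766, 6074 and 5390 with clofibrate. Its 3 groups were separate and in that order, and the change passed with clofibrate (-0.60 ± 0.10; limma adjusted p = 0.00459) but not with permethrin (-0.34 ± 0.10; limma adjusted p = 0.126). Ahcy (probe set 1417125_at, chromosome 2) showed the same order, with 8185, 7473 and 8430 in the control mice, 6868, 6710 and 6405 under permethrin, and 5541, 6370 and 6211 under clofibrate. It fell with clofibrate by 0.41 ± 0.09 (limma adjusted p = 0.0182). Bhmt (probe set 1450624_at, chromosome 13), betaine-homocysteine methyltransferase, read 12082, 11370 and 12553 in controls, 10213, 10766 and 10127 with permethrin, and 6761, 9813 and 8789 with clofibrate. Its groups too were separate, and it fell with clofibrate by 0.52 ± 0.12 (limma adjusted p = 0.0277). The clofibrate calls of Bhmt and Ahcy were lost in 12 and 10 of the 21 alternatives. Mat1a passed in neither comparison, although its treated mice, at 4539 to 5446, were all below the controls at 5606 to 6893.

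**Figure D3:**
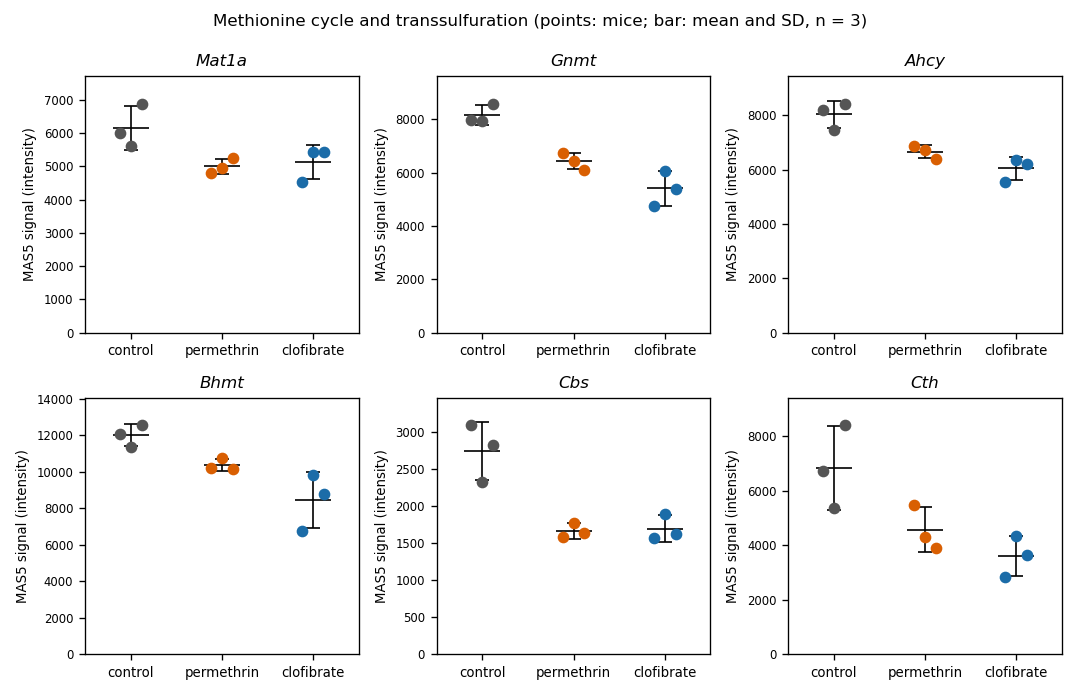
MAS5 signals (vertical axis, linear intensity from 0) of the 6 methionine enzymes are plotted for each mouse, with the mean and SD of each group of 3. For Gnmt, Ahcy and Bhmt the order is control, permethrin, clofibrate from high to low, while the treated groups of Cbs and Mat1a overlap each other.

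In the breakdown of tyrosine, 3 of 4 enzymes fell with clofibrate and 0 with permethrin. Tat, tyrosine aminotransferase, starts the pathway, Hpd makes homogentisate, Hgd opens its ring, and Fah releases fumarate and acetoacetate. Fah (probe set 1417220_at, chromosome 7) fell with clofibrate from 7265, 6680 and 7119 in controls to 4537, 5278 and 5285 (-0.48 ± 0.10; limma adjusted p = 0.0145). With permethrin it read 5284, 6202 and 5325, below every control, without passing (-0.33 ± 0.10; limma adjusted p = 0.141). Hpd (probe set 1424618_at, chromosome 5) fell with clofibrate from 10598, 10039 and 10612 to 6938, 8639 and 7969 (-0.41 ± 0.09; limma adjusted p = 0.0206), with 8436 to 8833 under permethrin. Hgd (probe set 1452986_at, chromosome 16) fell with clofibrate from 5411, 5152 and 6062 to 3948, 4549 and 4316 (-0.37 ± 0.09; limma adjusted p = 0.0379), with 4741 to 5082 under permethrin. The calls of Hpd and Hgd were lost in 11 and 15 of the 21 alternatives. Tat passed in neither comparison. Its controls read 3721, 3676 and 5508 and its treated mice 2934 to 3528, and 1 control stood above the others. All 4 enzymes had treated groups below the controls under both diets.

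In the kynurenine pathway of tryptophan 1 of 5 enzymes fell with clofibrate and 0 with permethrin. Tdo2, tryptophan dioxygenase and the entry to the pathway, read 6351, 5600 and 7105 in the control mice, 7187, 6641 and 6948 under permethrin, and 5634, 6439 and 6793 under clofibrate, and its groups overlapped. The 95% interval of its change was -0.10 to 0.36 with permethrin and -0.24 to 0.22 with clofibrate. Kynu (probe set 1430570_at, chromosome 2), kynureninase, fell with clofibrate from 910, 942 and 1154 to 720, 704 and 759 (-0.45 ± 0.12), just inside the threshold (limma adjusted p = 0.048), and read 732 to 858 with permethrin. That call was lost in 15 of 21 alternatives, and a dimmer second probe set of Kynu had a change of 0.02. Haao, which makes the precursor of quinolinate, was just outside with clofibrate (-0.37 ± 0.10; limma adjusted p = 0.0534). Afmid, which hydrolyses formylkynurenine, had -0.61 ± 0.20 with clofibrate without passing at its brightest probe set (limma adjusted p = 0.109). Both other tested probe sets of Afmid fell with clofibrate, by 0.75 and 0.97 (limma adjusted p = 0.0275 and 0.021). Kmo, kynurenine monooxygenase, had overlapping groups under both diets.

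Only Gldc and Shmt1 of the 6 serine and glycine enzymes could be read. Gldc (probe set 1416049_at, chromosome 19), the decarboxylase of the glycine cleavage system, fell with clofibrate from 1232, 1199 and 1362 to 817, 896 and 1039 (-0.47 ± 0.12; limma adjusted p = 0.042), a call lost in 13 of the 21 alternatives. With permethrin it read 1072 to 1266 and overlapped the controls. Shmt1, the cytosolic serine hydroxymethyltransferase, had 4 tested probe sets that disagreed. The brightest had changes of -0.11 with permethrin and -0.08 with clofibrate, neither past the threshold. A dimmer probe set fell under both diets, by 0.90 each (limma adjusted p = 0.0424 and 0.0194), while another had 0.11 and 0.41 without passing.

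Branched-chain amino acid breakdown had 1 of 8 enzymes lower with clofibrate and 0 with permethrin, and its medians, -0.10 and -0.12, compare with -0.04 over all genes. Bckdha, Bckdhb and Dbt are subunits of the dehydrogenase that commits leucine, isoleucine and valine to degradation. Dbt (probe set 1449118_at, chromosome 3), its transacylase core, fell with clofibrate from 807, 958 and 1085 to 587, 502 and 521 (-0.81 ± 0.15; limma adjusted p = 0.00769). With permethrin Dbt read 802, 864 and 639, which overlapped the controls. Of the decarboxylase subunits, Bckdha had 0.21 ± 0.11 and Bckdhb -0.03 ± 0.13 with clofibrate, neither past the threshold. Hibch, which hydrolyses a valine intermediate, was the enzyme with the highest estimate under both diets. It read 787, 832 and 748 in controls, 933, 1199 and 964 with permethrin, and 876, 1139 and 1017 with clofibrate. Both treated groups were above the controls, with estimates of 0.38 ± 0.13 and 0.35 ± 0.13 that did not pass (limma adjusted p = 0.215 and 0.166). With clofibrate Hibch passed as higher when its probe sets were averaged (0.52; limma adjusted p = 0.0199). Dimmer second probe sets of Hibch and Mccc2 were higher with clofibrate by 0.69 and 0.67 (limma adjusted p = 0.0459 each). Ivd, Mccc1 and Mccc2 of the leucine branch and Aldh6a1 of the valine branch had estimates from -0.25 to 0.26 that did not pass. Aass, the first enzyme of lysine breakdown, had changes of -0.08 ± 0.11 and -0.02 ± 0.11 with overlapping groups.

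The direct comparison of the treated groups asks whether the diets differed. In limma 0 of 37 enzymes passed, where 0.738% of all tested genes did (0.473% higher and 0.265% lower with permethrin), and 11 of 37 had an unadjusted p under 0.05. Of these 11, 6 were higher with permethrin (Hgd, Prodh, Gldc, Bhmt, Gnmt and Dbt) and 5 were lower (Prodh2, Aldh4a1, Ftcd, Bckdha and Mccc2). The share of all tested genes at that unadjusted limit was not computed for this comparison, so the count of 11 has no reference. The groups were wholly separate for 7 enzymes with permethrin higher and for 3 with permethrin lower, where 9.08% and 9.02% of all genes were. Enzymes past the threshold with clofibrate alone are therefore not shown to differ between the diets. For Dbt the difference was 0.51 ± 0.15 (95% interval 0.19 to 0.83; limma adjusted p = 0.175). For Cbs it was -0.02 ± 0.12 (95% interval -0.29 to 0.25) and for Amdhd1 -0.02 ± 0.12 (95% interval -0.28 to 0.23). The median difference over the enzymes was 0.10, against -0.01 over all genes. Under scaling to the hybridization controls the enzymes' median was -0.09 and the median over all genes was -0.18. Relative to the median gene, the enzymes stood at 0.103 as reported and at 0.095 under that scaling. A dimmer probe set of Mccc2 differed by -0.91 (limma adjusted p = 0.0442).

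A further list held 59 genes of the same pathways that are not among the 42. Of 51 tested, 1 fell and 1 rose with permethrin, where 0.85% of all tested genes fell and 1.28% rose. With clofibrate 10 of the 51 fell and 1 rose, where 3.8% of all tested genes fell and 3.22% rose. The median log2 changes of the 51 genes were -0.16 and -0.14. Csad, which makes hypotaurine, was the gene that rose, from 668, 367 and 299 in the control mice to 1422, 1744 and 1991 under permethrin and 1975, 1831 and 2517 under clofibrate (2.01 ± 0.25 and 2.31 ± 0.25; limma adjusted p = 0.00239 and 0.000413). Cdo1, the dioxygenase that supplies Csad with substrate from cysteine, read 6684, 5693 and 5763 in the control mice, 3874, 3634 and 3844 under permethrin, and 4084, 5009 and 4379 under clofibrate. Its treated groups lay below the controls (-0.67 ± 0.10 and -0.43 ± 0.10; limma adjusted p = 0.00742 and 0.0306). In nitrogen disposal 4 of 9 genes fell with clofibrate and 0 with permethrin, with medians of -0.55 and -0.34. Asl, argininosuccinate lyase, fell with clofibrate by 1.06 ± 0.13 (limma adjusted p = 0.000937). Otc, ornithine transcarbamylase, fell by 0.76 ± 0.12 (limma adjusted p = 0.00304) and Cps1, which fixes ammonia for the cycle, by 0.68 ± 0.10 (limma adjusted p = 0.00203). Glud1, glutamate dehydrogenase, fell by 0.60 ± 0.10 (limma adjusted p = 0.00694). Of the glycine and serine group, Shmt2, Dmgdh and Hao1 fell with clofibrate by 0.55, 0.50 and 0.50, and Bhmt2, a relative of Bhmt, fell by 0.51. Shmt2, the mitochondrial serine hydroxymethyltransferase, was the 1 gene of the 51 tested that differed between the diets. It read 1722, 1739 and 1651 in controls, 1703, 2110 and 1701 with permethrin, and 1166, 1201 and 1125 with clofibrate, and was 0.65 ± 0.10 higher with permethrin than with clofibrate (limma adjusted p = 0.0207). In the branched-chain group 0 of 11 tested genes passed in either comparison with control.

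The 7 hepatocyte markers, among them Alb and Apoa1, had a median log2 change of -0.20 with permethrin and -0.42 with clofibrate, and 0 and 5 of them fell. The enzymes' medians were -0.30 and -0.37. With clofibrate the order of the enzyme and marker medians turned under quantile normalization (-0.26 for enzymes and -0.09 for markers), cyclic loess (-0.24 and -0.20) and averaging of probe sets (-0.41 and -0.40). Of 1847 tested genes at least as bright as the dimmest enzyme, 2.71% fell and 4.82% rose with permethrin, with a median of -0.02. With clofibrate 15% of them fell and 8.28% rose, with a median of -0.08. These genes start at a mean signal of 554, so they are not matched to the brightest enzymes. Other genes about as bright as Hpd (-0.41) had clofibrate changes such as -0.44 (Apoe), -0.46 (Plg), -0.42 (Cp) and -0.51 (Cyp2c29). Smaller or opposite changes also occurred at that brightness, such as -0.33 (Rps29), -0.275 (Eef1a1) and 0.20 (Dbi). Of 10 tested periportal markers 2 fell with permethrin and 6 with clofibrate, and of 11 pericentral markers 1 and 4 fell. Of all tested genes 0.85% fell with permethrin and 3.8% with clofibrate. Hal, Alb, Asl and Cps1 were among the periportal markers, and Hal is also 1 of the 37 enzymes. The part of array brightness, hepatocyte content or zones in the enzymes' changes was not tested.

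**Figure D4:**
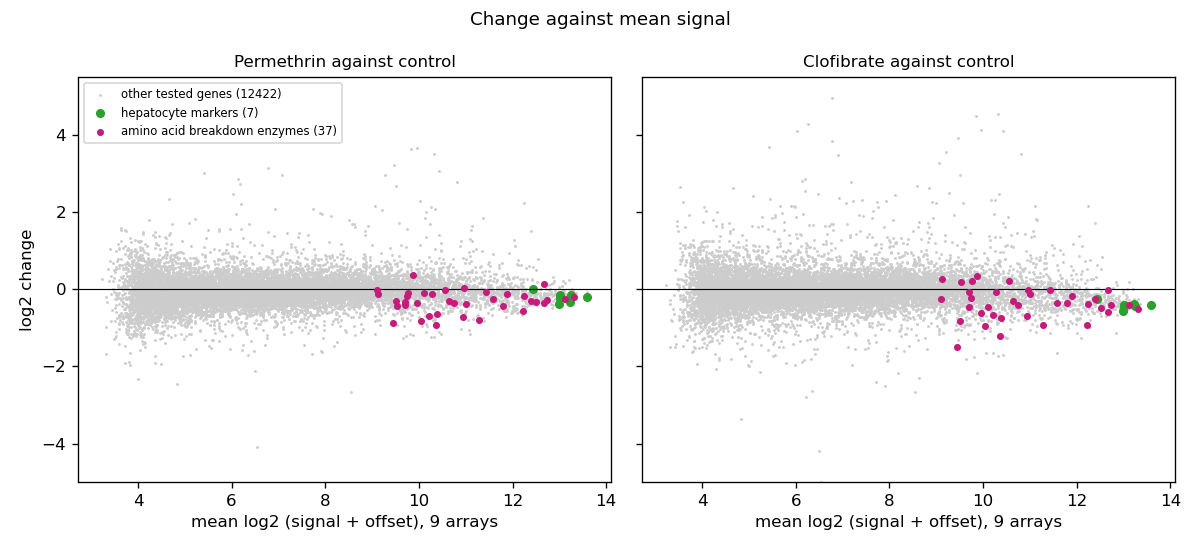
The log2 change against control (vertical axis) is plotted against the mean log2 signal over the 9 arrays (horizontal axis) for 12466 genes, with permethrin on the left and clofibrate on the right. The 37 enzymes (pink) and 7 hepatocyte markers (green) sit among the brighter genes, mostly below 0, and with clofibrate the markers lie at the level of many enzymes.

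The counts depended on the normalization and on single mice. After cyclic loess normalization, which removes shifts tied to signal and was chosen after seeing the data, 5 enzymes fell with permethrin and 10 with clofibrate, with medians of -0.27 and -0.24. Under scaling to the hybridization controls, transcripts added in fixed amounts, the median gene itself moved to 0.09 with permethrin and 0.27 with clofibrate. The enzymes' medians were then -0.16 and -0.04, or -0.25 and -0.31 relative to the median gene. Hal remained lower with permethrin and Prodh, Hal and Agxt with clofibrate, while Hibch and Bckdha passed as higher with clofibrate (0.68 and 0.54). Without control replicate 1, control replicate 2, control replicate 3, permethrin replicate 1 and permethrin replicate 3, the permethrin count was 1, 4, 1, 3 and 0. Without control replicate 1, control replicate 3 and clofibrate replicate 3, the clofibrate count was 7, 8 and 10. Hal and Prodh kept their clofibrate call in all 21 alternatives that leave the permethrin arrays in, and Agxt kept it in 20. All 3 also kept it without each permethrin array.

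**Figure D5:**
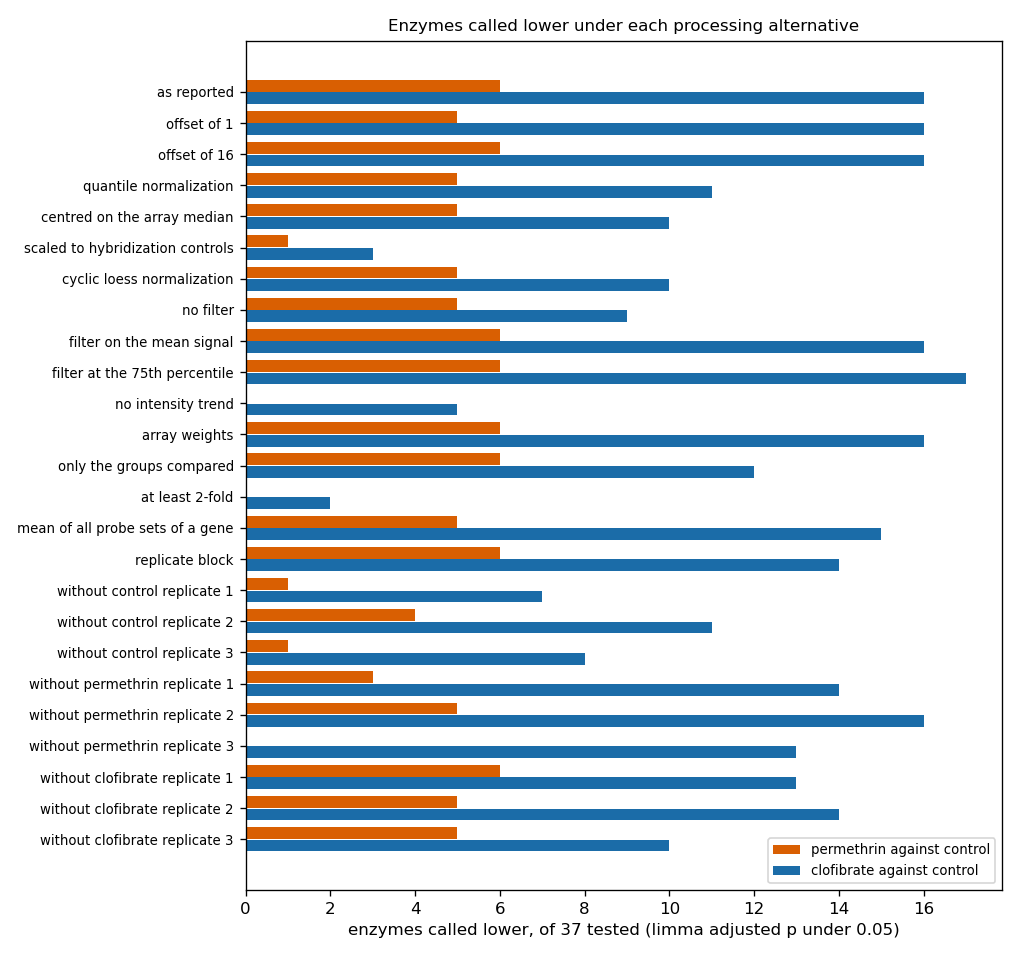
The number of enzymes called lower, of 37 tested (horizontal axis), is shown for each processing alternative (vertical axis) for permethrin and clofibrate against control. The reported counts are 6 and 16, and the lowest are 0 and 2. Arrays left out of 1 treated group also change the other comparison, because all groups share the estimate of the spread.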

How the data were processed

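RNA from 9 mouse livers was measured on Affymetrix arrays, 1 per mouse. Per the submitters' processing notes, the authors computed MAS5 values; their version and settings are not stated in the labels. What was deposited are linear intensity signals, scaled on each array to a trimmed mean of 100.001. Of 45101 probe sets, 64 are array controls, 34945 have 1 gene symbol, 932 several and 9160 none. Current symbols were taken through Entrez identifiers for 34741.

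Signals were taken to log2 after adding 3.35, which is their 20th percentile over all arrays, so changes of dim genes are understated. A probe set was tested if 3 or more arrays exceeded 15.6, the median over all arrays, which 24546 did. limma 3.58.1 in R 4.3.3 fitted 1 mean per group, letting the variance prior follow intensity. All tests are two-sided, with Benjamini-Hochberg adjustment over all tested probe sets and a threshold of 0.05. Values after ± are standard errors, n = 3 mice per group. P-values reflect the spread between these mice, and 3 arrays per group limit the precision. The procedure was tested on simulated data.

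Enzymes and lists were chosen with earlier results of these data known. The text names every enzyme past the threshold, and of other pathway genes the 10 past the threshold with the largest changes; further enzymes and genes were named after their values were seen. The labels' replicate numbers name no shared litter or day. Deviations of same-numbered arrays from their group means had correlations from -0.109 to 0.113, and the mice were treated as unpaired. 0 columns belonged to other samples. Alternatives covered offset, normalization, filter, variance model, weights, arrays, fold limit, probe sets, replicate block and left-out arrays. Genome coordinates are those of the RefSeq promoters.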

Additional observations from a re-analysis of the deposited data

How the results depend on the processing

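Each of the 22 calls against control, 6 with permethrin and 16 with clofibrate, kept its direction in the 21 alternatives counted for it, which leave out no array of the third group. The count lower with clofibrate, 16 as reported, was 10 with each array centred on its median, 3 under scaling to the hybridization controls, 10 with cyclic loess, 9 without a filter, 5 without the intensity trend and 2 at 2-fold or more. Leaving out single control or clofibrate arrays gave 7 to 14, and single permethrin arrays 13 to 16. The count lower with permethrin, 6 as reported, was 1 under scaling to the hybridization controls, 0 without the intensity trend and 0 at 2-fold or more, 0 to 5 without single control or permethrin arrays, and 5 to 6 without single clofibrate arrays. The count higher with clofibrate, 0 as reported, was 2 under scaling to the hybridization controls and 1 with probe sets averaged. With the replicate block, 6 enzymes were lower with permethrin and 14 with clofibrate (Hgd and Kynu lost their calls). The enzymes' median for permethrin against clofibrate was 0.10 as reported and -0.088 under scaling to the hybridization controls. Under that scaling the median over all genes was -0.18, so the enzymes stood 0.095 above the median gene. The number of arrays, 3 per group, limits the precision. A fold limit removes calls by its construction; for the other settings the cause was not tested.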
